A study of Mus musculus with 9 samples.

Results

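Apob, Mttp and Tm6sf2, 3 genes of very-low-density lipoprotein (VLDL) assembly, were followed through RNA immunoprecipitation sequencing (RIP-seq) of mouse liver with an antibody against HuR. They were chosen by name, with every exon from the first to the last, out of 33732 gene names in the deposited exon table. The table holds 71 lines for Apob, 37 for Mttp and 20 for Tm6sf2. Many of these lines overlap, and merging them gave 29, 19 and 7 exons, 55 in all. All groups came from whole healthy liver of C57BL/6 WT mice aged 8 weeks. They were 3 pull-downs with the HuR antibody (HuR RIP), 3 with control IgG (IgG RIP) and 3 Input libraries of lysate RNA, and no group carried a treatment or another allele. The pull-downs were native, so proteins were not cross-linked to RNA, and each used the lysate of 1 liver. The series states its question as which RNAs HuR targets in this tissue. Input was present as a single pooled mean, which gives no spread and no test.

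VLDL carries triglyceride from the liver to other tissues. Apob encodes apolipoprotein B, the large protein that wraps each particle and stays with it for life. As apolipoprotein B enters the endoplasmic reticulum, the microsomal triglyceride transfer protein encoded by Mttp loads lipid onto it, and unlipidated apolipoprotein B is degraded. Tm6sf2 encodes a membrane protein of the endoplasmic reticulum and Golgi that is needed for full lipid loading of the particle. HuR, the product of Elavl1, binds U-rich and AU-rich stretches of RNA, often in 3′ UTRs.

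Levels are in RPKM, reads per kilobase of exon scaled to the size of the library, and values of a group are always given in the order of its libraries 1, 2 and 3. The library sizes behind them were about 26610000, 26330000 and 26910000 reads with HuR and 15860000, 26660000 and 28830000 reads with IgG. Listed exons held 27.9% to 60.5% of those reads. IgG 1 was the smallest library and had the highest Apob, Mttp and Tm6sf2 levels of the 3 IgG libraries. In both groups the RPKM columns of libraries 1 and 2 carry the letter M and that of library 3 the letter F. The columns of IgG 2 and IgG 3 also carry a letter r, which that of IgG 1 lacks. The labels do not explain these letters. Xist, a transcript of female cells, had 10.2 RPKM in HuR 2 and 0.463 RPKM in HuR 3. Ddx3y, a Y-linked gene, was at 0.0188 and 2.04 RPKM in the same order. The numbers of HuR 2 and HuR 3 may therefore be exchanged, which leaves the groups as they are. Over the IgG libraries Xist was at 0.0070, 0.103 and 0.359 RPKM and Ddx3y at 0.328, 0.0558 and 0 RPKM. Either group may thus mix sexes, which was not tested. Of the hepatocyte markers, 12 of 12 were tested, and their summed level came to 1096 to 1125 RPKM with the HuR antibody, 336 to 882 RPKM with IgG and 863 RPKM for Input. Enterocytes also make Apob and Mttp. Of 9 enterocyte markers in the table, 4 were at 0 in all 6 pull-downs, and the sum of all 9 ran from 0.461 to 3.39 RPKM with the HuR antibody and from 0.161 to 2.33 RPKM with IgG.

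The stretches of RNA that carry the results below are long, and the letters of the AU-rich and U-rich type that they hold are shown first. Sequences were read from GENCODE M21 transcripts (GRCm38, also called mm10), 5′ to 3′ on the strand of the RNA, with T for U. On that strand 4 motifs were searched: a run of T spelled TTTTTTT, the U-rich motif TTTATTT with an A at its middle, the core AU-rich pentamer ATTTA, and its extended form TATTTAT, which holds the pentamer within it. Matches may overlap. Capitals mark the motif letters.
Mttp 3′ UTR, base 492, chr3:138090548-138090571, minus strand: tcttttacTTTTTTTTcccccttc
Mttp 3′ UTR, base 585, chr3:138090456-138090478, minus strand: agaattaaTATTTATgttttctg
Mttp 3′ UTR, base 1015, chr3:138090026-138090048, minus strand: tttaaacaTATTTATtagtaaag
Apob exon 26, base 2469, chr12:8008196-8008220, plus strand: ataatctcTATTTATTTgttgaaaa
Apob exon 26, base 5753, chr12:8011480-8011502, plus strand: attgacaaTATTTATattccagc
Apob exon 29, base 153, chr12:8015159-8015181, plus strand: tctaaggcTATTTATgattatgc
Tm6sf2 3′ UTR, chr8:70080021-70080041, plus strand: tcccatacATTTAataaaacc

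Bases are counted from 1 at the first base after the stop codon or at the first base of the exon. The Mttp 3′ UTR is 1201 bases long, lies wholly in the last exon and is 32.3% T, against a median of 29.3% in the first 1201 bases of the 3′ UTRs of 8978 other protein-coding genes. It held 8 matches of ATTTA, 2 of TATTTAT and 0 of TTTATTT. Its run of 8 T gave 2 overlapping matches of TTTTTTT. Of the other genes, 78.1% held ATTTA in such a window, 2.26% held it as often or more, 26.3% held TATTTAT and 42.5% held TTTTTTT. The Mttp coding sequence, 2685 bases, held 1 match of ATTTA, which 61.3% of other genes hold in a coding window of that length. Apob carries such letters in its coding sequence. Exon 26 held 12 matches of ATTTA, 2 of TATTTAT and 1 of TTTATTT in 7467 bases. Of 253 other genes with a coding sequence at least as long, 9.49% held as many ATTTA or more in their first 7467 coding bases, 24.1% held TATTTAT and 24.1% held TTTATTT. The coding part of exon 29, 1536 bases, held 2 matches of ATTTA and 1 of TATTTAT, which 47.4% and 6.26% of other genes hold at least once in a coding window of that length. Exon 27 held 1 match of ATTTA. The Apob 3′ UTR, 285 bases long, and exons 2 to 25 together, 4134 bases, held none of the 4 motifs, whereas 32.1% and 72.8% of other genes held ATTTA in 3′ UTR and coding windows of these lengths. The 3′ UTR of Tm6sf2, 224 bases long, held 1 match of ATTTA, which 25.7% of other genes hold in a window of that length. A match shows letters only.

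Exon 26 also holds the codon that the Apobec1 editing complex changes from glutamine to a stop, which gives the short form of apolipoprotein B. It was found as the in-frame CAA before the letters of the mooring sequence, at codon 2179 of Apob-202. The edited C lies at chromosome 12, 8008054. It is shown because the exon with the most Apob reads carries it, with the codon in capitals.
Apob edited codon, base 2319 of exon 26, chr12:8008044-8008073, plus strand: atacgcgataCAAtttgatcagtatattaa

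Apob (ENSMUSG00000020609.14; mm10 chromosome 12, 7977648 to 8016835, plus strand) was the most abundant of the 3 genes in every library. Its gene level was 54.8, 45.7 and 41.3 RPKM over the HuR libraries and 27.97, 8.20 and 8.27 RPKM over the IgG libraries, with 17.7 RPKM in Input. All HuR libraries lay above all IgG libraries and above Input. The mean was 47.2 ± 6.88 RPKM with the HuR antibody and 14.8 ± 11.4 RPKM with IgG (SD, n = 3 each). The fold change on the log2(RPKM + 0.5) scale, which understates changes of low levels, was 1.87 (SE 0.99). In limma, fitted over the 5510 genes with at least 0.5 RPKM in at least 3 libraries, the Benjamini-Hochberg adjusted p = 0.192 did not pass the threshold of 0.05.

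Mttp (ENSMUSG00000028158.14; chromosome 3, 138089854 to 138144103, minus strand) had a lower level and a like difference. It was at 6.06, 8.05 and 5.32 RPKM over the HuR libraries and at 3.16, 0.896 and 0.801 RPKM over the IgG libraries, with 1.33 RPKM in Input. Here too the groups did not overlap, and all HuR libraries were above Input. For both genes 1 IgG library, IgG 1, was above Input. The share of genes with 1 such IgG library was not counted, and 20.7% of the tested genes had all 3 IgG libraries there. The means were 6.48 ± 1.41 RPKM and 1.62 ± 1.34 RPKM (SD, n = 3 each). The log2 fold change was 1.87 (SE 0.78, limma adjusted p = 0.118), short of the threshold. Within each library Mttp lay below Apob by 2.43 to 3.08 on the log2 scale in HuR RIP, as the per-library values of -3.08, -2.43 and -2.84 show. In IgG RIP the values were -2.96, -2.64 and -2.75. The HuR minus IgG difference of these values was 0.0004 (exact permutation p = 1, two-sided), and 3 against 3 libraries cannot give less than 0.1.

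Tm6sf2 (ENSMUSG00000036151.15; chromosome 8, 70072924 to 70080066, plus strand) was not detected in 2 of the 3 HuR libraries at this depth. It was at 0, 0 and 0.208 RPKM over the HuR libraries, which is 0, 0 and 8 reads. Over the IgG libraries it was at 1.28, 0.0786 and 0 RPKM, or 29, 3 and 0 reads, and Input was at 0.693 RPKM. The groups overlapped, and no HuR library was above Input. A count of 0 allows up to 3 reads, which is 0.0787 RPKM in HuR 1, 0.0796 RPKM in HuR 2 and 0.0727 RPKM in IgG 3. These limits cover counting error only, since reads are not independent molecules. Tm6sf2 was below the filter and was not tested.

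**Figure D1:**
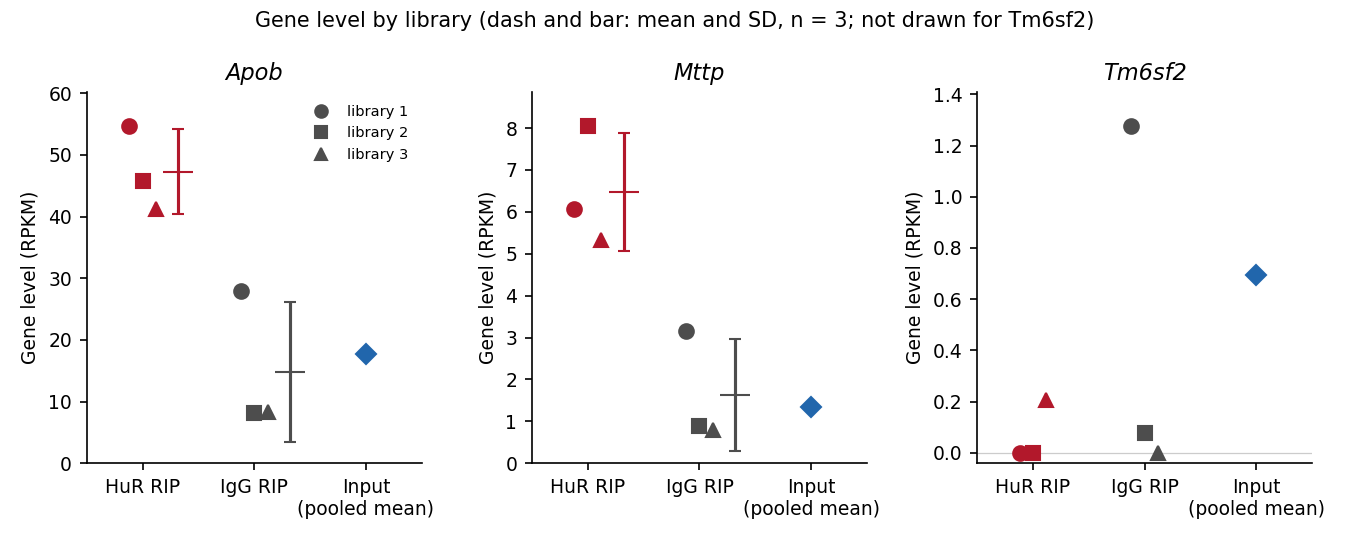
Gene level in RPKM (vertical axis, one scale per gene) of Apob, Mttp and Tm6sf2 in each HuR RIP and IgG RIP library and in the pooled Input mean, with the mean and SD of 3 libraries beside the points for Apob and Mttp. The HuR points lie above the IgG points for Apob and Mttp, IgG 1 is the highest IgG library for all 3 genes, and Tm6sf2 is at 0 in HuR 1 and HuR 2.

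Across the table, limma called 37 of 5510 genes higher (0.672%) and 7 lower (0.127%). The split was 1 higher and 18 lower with libraries centred at their medians, 50 and 342 with scaling by trimmed mean of M values (TMM), and 5 and 4 with quantile normalization. The median gene was higher in HuR RIP by 0.92, so Apob and Mttp each lay 0.95 above it. Of the tested genes, 85.7% had a smaller fold change than either. Groups that do not overlap in this direction were seen in 31.3% of the 5510 tested genes, and 68.9% had all 3 HuR libraries above Input. In a fit of the 3943 protein-coding genes alone, the median gene was higher by 1.08. In that fit Apob had a limma adjusted p = 0.0737 and Mttp an adjusted p = 0.0644. With libraries centred, the fold changes were 0.77 for both genes, where the median of all genes was -0.18. Under TMM they were 0.29 for Apob and 0.55 for Mttp, where the median of all genes was 0.09. Under quantile normalization they were 1.68 and 0.81, where that median was 0.05, and Mttp was then at an adjusted p of 0.411. Both genes passed the threshold without IgG 1, at 2.44 for Apob (adjusted p = 0.0475) and 2.35 for Mttp (adjusted p = 0.0444), where 741 genes were called.

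Along Apob, 3 of 29 exons had all HuR libraries above all IgG libraries: the long exons 26 and 29, and exon 23. Of the 29, 28 passed the filter and were tested. Over the whole table, 22.7% of the 11470 exons tested had such groups. Exon 26 is a coding exon of 7467 bases (chromosome 12, 8005736 to 8013202), 53.6% of the gene's merged length. It was at 73.6, 57.4 and 51.1 RPKM over the HuR libraries, against 26.97, 7.35 and 5.18 RPKM over the IgG libraries and 17.2 RPKM in Input. The HuR libraries lay above all IgG libraries and above Input, with 10263 to 14624 reads each against 1114 to 3193. Its log2 fold change was 2.4997 (SE 0.99, limma adjusted p = 0.213). Exon 29, the last, is 1821 bases long (8015015 to 8016835) and holds coding sequence and the 3′ UTR (8016551 to 8016835). It was at 85.9, 72.5 and 82.0 RPKM over the HuR libraries, the highest HuR mean of any Apob exon, at 32.1, 11.8 and 9.11 RPKM over the IgG libraries, and at 16.3 RPKM in Input. Again no IgG library reached a HuR library. All HuR libraries were above Input in 3 of the 29 Apob exons (26, 27 and 29) and in 43.5% of all exons tested. The log2 fold change was 2.36 (SE 0.94, limma adjusted p = 0.214). Over all 11470 exons tested limma called 0 (0.0%), with 2158 at an unadjusted p under 0.05 and a smallest adjusted p of 0.189.

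The first 25 exons of Apob have 39 to 374 bases each. As 1 stretch they were at 9.07, 13.9 and 7.60 RPKM over the HuR libraries, at 25.01, 7.21 and 13.3 RPKM over the IgG libraries, and at 18.1 RPKM in Input. These groups overlapped, and no HuR library reached Input. Of the 27 Apob exons under 400 bases, 26 were tested, 8 of them had a fold change above 0, and their median was -0.77. All HuR libraries were above all IgG libraries in 1 of the 27, exon 23, and below them in 1, exon 11. Over all exons tested, 4.92% lie below. Among tested exons of other protein-coding genes, 8.19% under 200 bases and 13.4% from 200 to 400 lie above. In the same 2 classes 6.71% and 6.22% lie below. No HuR library was above Input in 16 of the 27, against 11.9% of tested exons of all lengths. That share was not counted for short exons alone.

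Single short exons varied widely between libraries of 1 group. Exon 1, the first, was at 19.9, 65.4 and 4.19 RPKM over the HuR libraries and at 35.8, 10.04 and 71.3 RPKM over the IgG libraries. Exon 5 had the lowest HuR mean, at 1.46, 1.48 and 0 RPKM. Exon 12 had the highest IgG mean, at 75.1, 14.04 and 60.9 RPKM, and exon 24 the lowest, at 3.02, 0 and 0.475 RPKM. The highest HuR library exceeded the lowest by 1.44 times in exon 26 and 1.19 times in exon 29. Of the 27 short exons, 9 had a HuR library at 0, and in the other 18 the ratio ran from 1.29 in exon 28 to 43.8 in exon 3, with a median of 5.24 and 1 exon below exon 26. Between the long exons, exon 27 (115 bases) was at 91.2, 55.8 and 21.3 RPKM over the HuR libraries and at 55.4, 10.4 and 0 RPKM over the IgG libraries, which overlap.

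**Figure D2:**
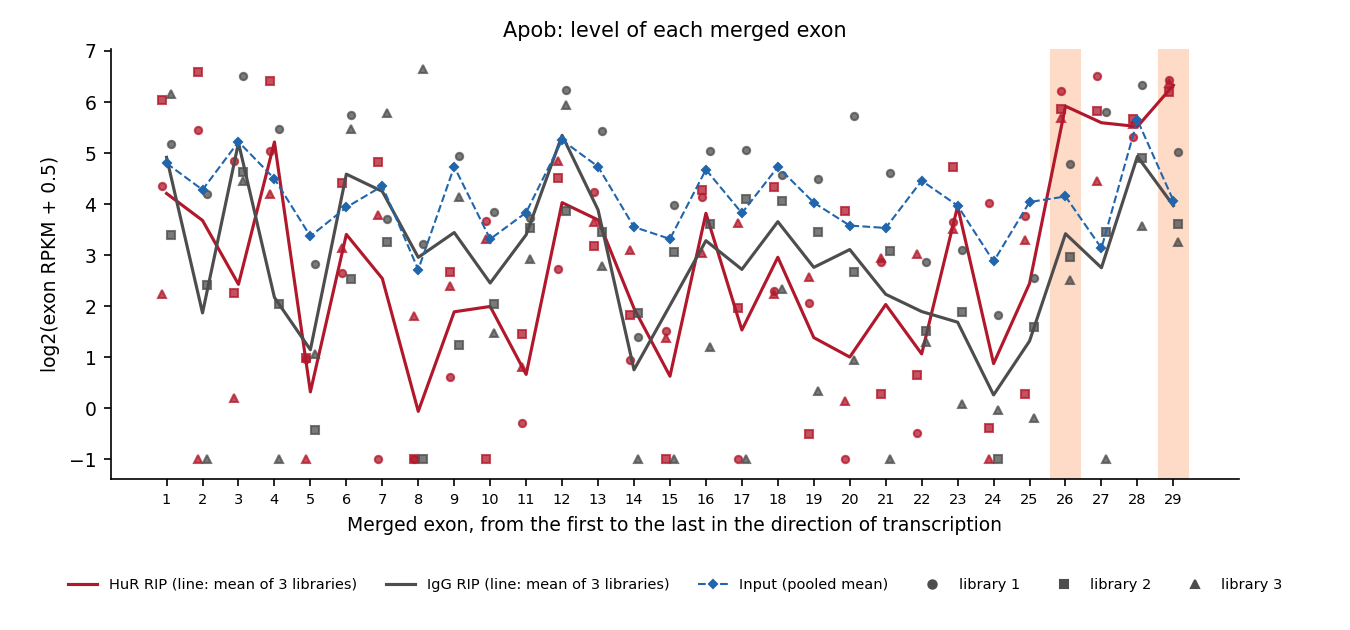
Level of each Apob merged exon, as log2(exon RPKM + 0.5) on the vertical axis, against exon number from 1 to 29, with points for the libraries, lines for the means of HuR RIP and IgG RIP, and a dashed line for Input. Exons of 1000 bases or more are shaded; in them the HuR points lie together above IgG and Input, while in exons 1 to 25 the groups overlap except in exons 11 and 23.

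In the authors' deposited table, the 3 Apob lines with a p under 0.05 were exon 11, at p = 0.00476 and lower in HuR RIP, and 2 overlapping lines of exon 29, at p = 0.0377 and 0.0438. Of 71 member lines at distinct coordinates, 60 had a deposited q, and the smallest was 0.541. The share of lines with a p under 0.05 over the whole deposited table was not counted. The sources used here do not name the authors' test.

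Every HuR library held a larger share of its Apob reads in the long exons than any IgG library did. Exons 26 and 29 make up 66.7% of the merged length of Apob. They held 92.5%, 88.0% and 92.3% of its exon reads over the HuR libraries, against 66.7%, 66.8% and 47.9% over the IgG libraries and 64.1% in Input. IgG 1, IgG 2 and Input thus lay within a few points of the share of length, and all HuR libraries lay above. The means were 91.0% ± 2.54 and 60.4% ± 10.9 (SD, n = 3 each; exact permutation p = 0.1, two-sided, the smallest that 3 against 3 libraries allow). How often the long exons of other genes separate in this way was not counted. Exons 1 to 25 held 5.17%, 9.51% and 5.75% of the reads over the HuR libraries and 27.9%, 27.5% and 50.3% over the IgG libraries.

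Within exon 29, lines that end at different places told the end of the exon with the 3′ UTR (335 bases, 8016501 to 8016835) from the part before it. The end was at 82.1, 44.6 and 114 RPKM over the HuR libraries and at 18.1, 7.17 and 3.52 RPKM over the IgG libraries. The part before it was at 86.8, 78.8 and 74.8 RPKM over the HuR libraries and at 35.3, 12.8 and 10.4 RPKM over the IgG libraries. In both parts all HuR libraries were above all IgG libraries, as in exon 29 as a whole, so the parts are not separate results. Of tested exons of other protein-coding genes from 1000 to 2000 bases, 40.1% had groups apart in this direction. Such parts of other exons were not counted. In exon 26, reads away from its 3′ end gave 69.4, 53.9 and 52.8 RPKM over the HuR libraries and 25.6, 5.44 and 3.57 RPKM over the IgG libraries. Reads touching the last 844 bases gave 107, 85.0 and 37.8 RPKM over the HuR libraries and 37.8, 22.3 and 17.8 RPKM over the IgG libraries, so HuR 3 was there at the level of IgG 1. The part of exon 26 that holds the edited codon and the 2 TATTTAT matches is the one away from the 3′ end.

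Along Mttp most reads of each HuR library lay in the last exon and its 3′ UTR. Exon 19 (1376 bases, chromosome 3, 138089854 to 138091229) was at 22.3, 21.5 and 22.01 RPKM over the HuR libraries, from 818, 780 and 815 reads. It was at 7.88, 1.36 and 0.706 RPKM over the IgG libraries, from 172, 50 and 28 reads, and at 2.05 RPKM in Input. The 3 HuR libraries were close to each other and all above the IgG libraries, which spread over a wider range. The log2 fold change was 3.08 (SE 1.11, limma adjusted p = 0.194). A second line covers only the coding end of this exon, so reads of the 3′ UTR alone could be told apart. The 3′ UTR (138089854 to 138091054), which carries the Mttp sites printed above, was at 25.6, 24.1 and 24.9 RPKM over the HuR libraries and at 8.14, 1.09 and 0.809 RPKM over the IgG libraries, with 1.90 RPKM in Input. Its mean was 24.9 ± 0.731 RPKM with the HuR antibody and 3.35 ± 4.15 RPKM with IgG (SD, n = 3 each). Reads touching the coding end numbered 0, 17 and 11 over the HuR libraries and 17, 15 and 0 over the IgG libraries, which overlap.

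The other exons of Mttp were low and uneven. Exons 2 to 18, which with exon 19 make up transcript Mttp-201, were together at 1.69, 6.58 and 0.225 RPKM over the HuR libraries, at 2.90, 1.29 and 1.39 RPKM over the IgG libraries, and at 1.88 RPKM in Input. In HuR 2 the level came largely from exon 4, at 73.3 RPKM, and exon 5, at 34.5 RPKM, both of which were at 0 in HuR 1 and HuR 3. Exon 4 had the highest HuR mean of the gene through that library alone. Exon 10 had the highest IgG mean, at 4.85, 4.88 and 12.7 RPKM, against 0.222, 3.37 and 0.220 RPKM over the HuR libraries. It and exon 8 were the exons with all HuR libraries below all IgG libraries. Of 17 exons under 400 bases, 9 were at 0 in all HuR libraries, and only exons 9 and 10 of them passed the filter. Exon 1 (1841 bases), from a non-coding transcript of the locus, was at 0.0413 RPKM or less in every library and overlaps Trmt10a on the other strand. Exon 9 overlaps the antisense gene Gm43691. Reads over several lines were split equally between the lines, not between the genes, in the deposited values. Mttp exon 9 thus holds fractions of reads, such as 53.34 in HuR 2, and the 2 genes cannot be told apart there by strand.

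Exon 19 held 87.4%, 63.4% and 98.0% of Mttp reads over the HuR libraries, against 59.1%, 36.1% and 20.9% over the IgG libraries and 36.5% in Input. It makes up 23.7% of the merged length, or 34.7% of that of exons 2 to 19. The lowest HuR share, in the library with the pile-ups in exons 4 and 5, was above the highest IgG share. The means were 82.9% ± 17.7 and 38.7% ± 19.2 (SD, n = 3 each; exact permutation p = 0.1, two-sided, the smallest possible here). How often the shares of other genes' last exons separate in this way was not counted. Without the last exon the log2 fold change of Mttp was 0.07 (limma adjusted p = 0.979), against 1.76 for Apob (adjusted p = 0.456). The median of the 2155 genes tested in this way was 0.47.

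**Figure D3:**
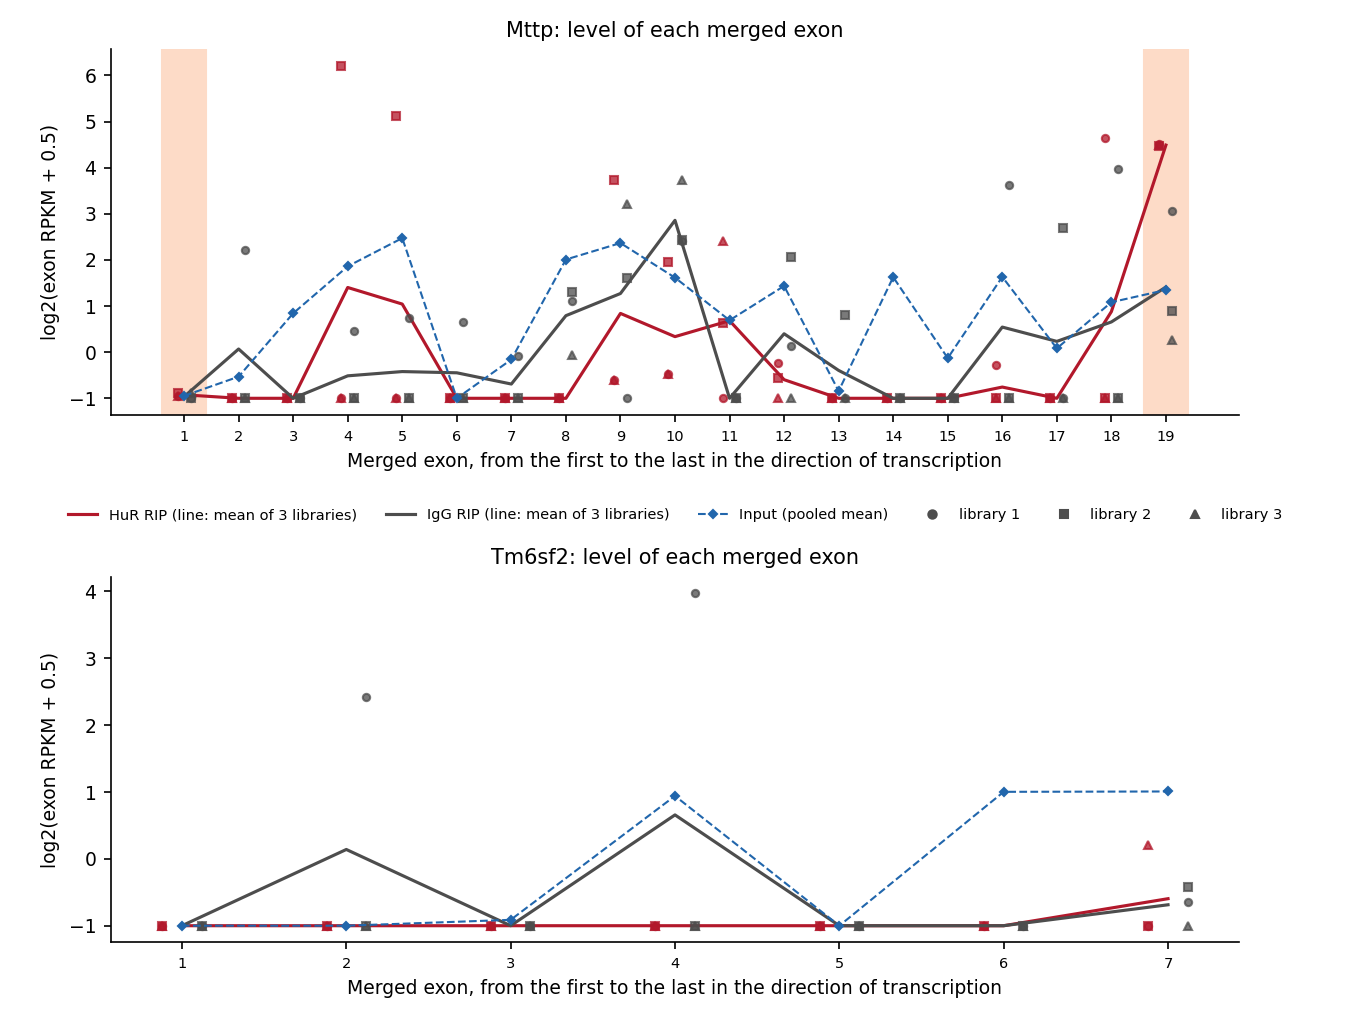
Level of each merged exon of Mttp (upper panel, exons 1 to 19) and Tm6sf2 (lower panel, exons 1 to 7), as log2(exon RPKM + 0.5), with points for the libraries, lines for the group means and a dashed line for Input. Exons of 1000 bases or more are shaded. In Mttp exon 19 the 3 HuR points coincide near 22 RPKM, whereas most other exons are at 0 in most pull-downs; Tm6sf2 has a HuR point above 0 in exon 7 alone.

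The last exon over the rest of the gene was compared across 3739 genes with at least 3 exons. For Mttp this log2 ratio was 3.93, 2.34 and 5.14 over the HuR libraries and 1.93, 0.57 and -0.14 over the IgG libraries. The difference of 3.01 (SE 0.98, limma adjusted p = 0.0822) did not pass. Leaving out single libraries gave 2.34 to 3.74, and it passed only without HuR 2, at 3.74 (adjusted p = 0.0419), where 489 of 3739 genes passed. For Apob the ratio was 0.77, 0.79 and 1.21 over the HuR libraries and 0.23, 0.59 and 0.15 over the IgG libraries, a difference of 0.60 (SE 0.74, adjusted p = 0.603). Apob has its longest exon among the rest, so a gain there lowers this ratio. The median of all genes was 1.30, and 82.6% of them had a difference above 0. Limma called 196 genes higher (5.24%) and 0 lower, with 1144 in either direction at an unadjusted p under 0.05. Of these 3739 genes, 88.9% had a smaller value than Mttp and 30.2% a smaller value than Apob.

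Tm6sf2 has 7 exons of 83 to 451 bases. In HuR RIP all of its 8 reads were in exon 7, the last, in HuR 3. In IgG 1 its reads were in exon 4, at 15.2 RPKM, and exon 2, at 4.86 RPKM, with 1 read in exon 7. Input was highest in exon 7, at 1.51 RPKM, and exon 6, at 1.504 RPKM. None of the 7 exons had all HuR libraries above all IgG libraries.

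**Figure D4:**
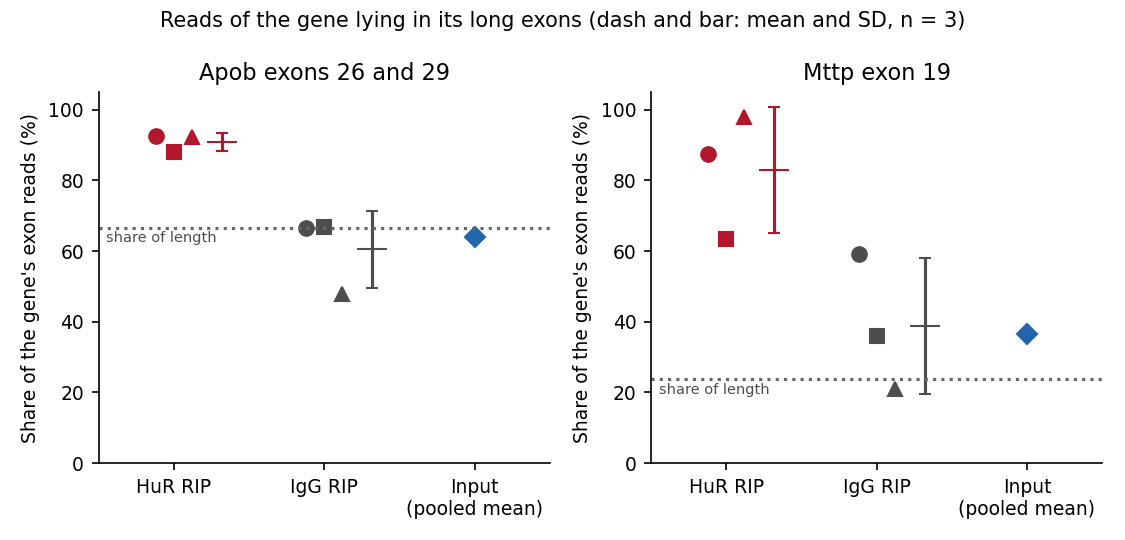
Share of the gene's exon reads (vertical axis, percent) in Apob exons 26 and 29 and in Mttp exon 19, by library (circle, square and triangle for libraries 1, 2 and 3), with the mean and SD of 3 libraries and the pooled Input mean. The dotted line is the share of merged length, 66.7% and 23.7%; every HuR point lies above every IgG point and above Input.

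Exon length moved with the fold change across the table as well, and its part in the Apob and Mttp results was not tested. Among exons of other protein-coding genes, the median log2 fold change was 0.0006 under 200 bases, 0.49 from 200 to 400, 1.09 from 400 to 1000, 1.47 from 1000 to 2000 and 1.38 from 2000 bases. The share with all HuR libraries above all IgG libraries rose over the same classes from 8.19% to 49.3%. Read against the 3259 exons of 1000 bases or more, the fold change of Mttp exon 19 was above 97.0% of them, that of Apob exon 26 above 88.6% and that of Apob exon 29 above 85.3%. Of the 28 tested short exons of the 2 genes, 8 lay above the median of their class and 20 below. The 20 under 200 bases had a median of -1.18, and the 8 from 200 to 400 bases had -0.33.

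**Figure D5:**
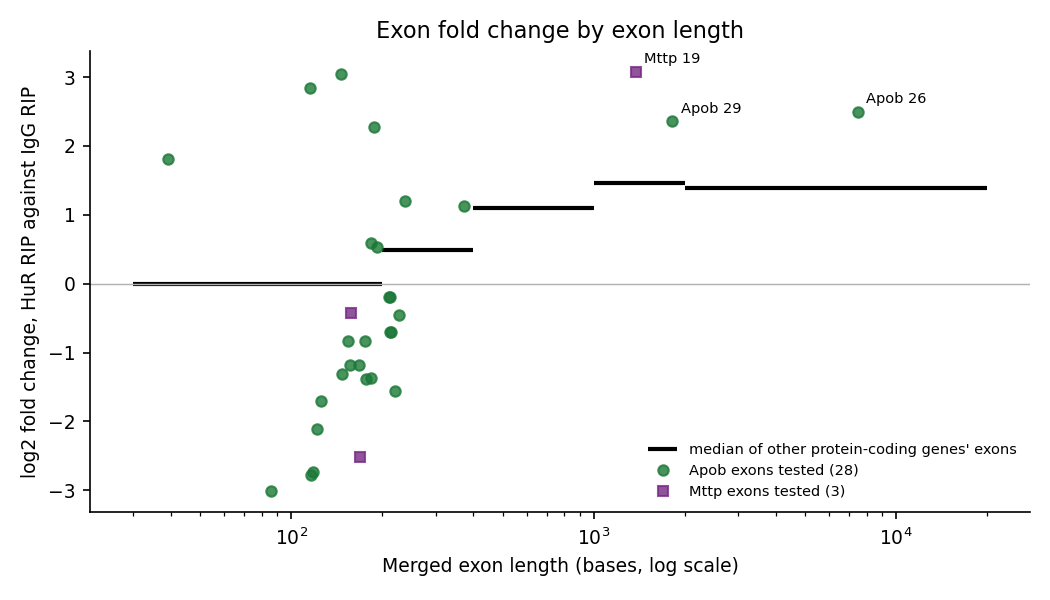
Log2 fold change of HuR RIP against IgG RIP (vertical axis) against merged exon length in bases (log axis) for the 28 tested exons of Apob and the 3 of Mttp; black bars are medians of other protein-coding genes' exons by length class. The 3 labelled long exons lie at 2.36 to 3.08, above the bars for their length, and most exons under 400 bases lie below theirs.

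The genes whose pattern over the 6 pull-downs was most like that of Apob, by Pearson correlation of log2(RPKM + 0.5) among 3856 protein-coding genes, were Camk1d (r = 0.998), Pum2, Deaf1 and Cyp4v3 (r = 0.997 each). For Mttp they were Crp, Stom and Pcf11 (r of 0.999, 0.999 and 0.998), and Scamp1 (r = 0.998). Apob and Mttp had r = 0.982 with each other. These are descriptions over 6 libraries that share the HuR and IgG split and library depth, and 1048 genes had r of 0.9 or more with Apob and 1088 with Mttp.

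Other genes of the pathway were taken from lists, described by counts, and no tested member of any list passed the limma threshold in either direction. At an unadjusted p under 0.05 there were 2 genes of lipid loading, 7 of export, 4 of quality control and uptake, 1 of editing, 2 regulators and 3 other apolipoproteins, all of them higher in HuR RIP. Of all tested genes, whatever their type, 31.1% had such a p and 27.9% were higher with it. Only the 7 of 14 export genes were a larger share than this. In the fit of protein-coding genes alone, 1599 of 3943 had such a p in either direction, which is a higher background. The lists were not counted in that fit. Partners of lipid loading had 14 tested members of 22 with a median log2 fold change of 0.65, below the 0.92 of all tested genes. Groups that did not overlap were seen in 2 of the 14, against 31.3% of all tested genes. Both were the list's first by p: Arf1, a small GTPase of vesicle formation, at 3.28 (SE 0.87, limma adjusted p = 0.0566), and Aadac, a lipid hydrolase of the endoplasmic reticulum, at 1.998 (adjusted p = 0.101). Ces1f, a carboxylesterase, had 1.57 (adjusted p = 0.176). P4hb, the small subunit of the transfer protein complex that Mttp forms, averaged 50.1 ± 25.9 RPKM with the HuR antibody and 16.4 ± 9.66 RPKM with IgG (SD, n = 3 each), with overlapping groups and a fold change of 1.61 (adjusted p = 0.262).

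Of the genes listed for export from the endoplasmic reticulum, all 14 tested members of 27 had a fold change above 0, as 79.1% of all tested genes did. Their median was 1.28, against 0.92 over all tested genes and 1.08 in the fit of protein-coding genes alone. HuR libraries were all above IgG in 8 of 14, against 31.3% of all tested genes, a share not counted for protein-coding genes alone. The 8 include Creg1 and Preb. Preb reached 0.5 RPKM in the HuR libraries alone, so the filter fixed its separation. Surf4, a cargo receptor for lipoproteins, averaged 17.4 ± 5.84 RPKM with the HuR antibody and 3.46 ± 3.68 RPKM with IgG (SD, n = 3 each), a fold change of 2.51 (limma adjusted p = 0.0854). Creg1, whose part in this export was not examined, had 2.72 (limma adjusted p = 0.0700) and is among the genes counted above. Kdelr1, a receptor that returns proteins to the endoplasmic reticulum, had 2.51 (limma adjusted p = 0.0872). Preb, the exchange factor of the Sar1 GTPases, had 1.45 (limma adjusted p = 0.114).

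Quality control and uptake of apolipoprotein B was a list with 15 of 16 genes tested and a median of 1.36. In 6 of the 15 the groups did not overlap, near the 31.3% of all tested genes. The chaperones of the endoplasmic reticulum came first by p: Pdia4 at 2.27 (limma adjusted p = 0.0854), Hsp90b1 at 2.42 (adjusted p = 0.0981) and Pdia3 at 1.92 (adjusted p = 0.114). Vcp, the ATPase that pulls proteins out for degradation, had 1.48 (adjusted p = 0.160). The editing list had 7 tested members of 8 and a median of 1.15. Apobec1, the cytidine deaminase that edits the codon printed above, averaged 1.52 ± 0.918 RPKM with the HuR antibody and 0.515 ± 0.805 RPKM with IgG (SD, n = 3 each), from overlapping groups and with a fold change of 1.15 (adjusted p = 0.237). Rbm47, a cofactor of editing, had 1.21 (adjusted p = 0.270), Ybx1 2.39 (adjusted p = 0.0700) and Hnrnpab 1.505 (adjusted p = 0.237).

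Regulators had a median of 0.999 over 15 tested members of 19. Of the 15, 6 had all HuR libraries above IgG, near the 31.3% of all tested genes, and 1, Nr1h4, had them all below. Erlin1 and Foxo1, among the 6, reached 0.5 RPKM in the HuR libraries alone, and Nr1h4 in the IgG libraries alone. The filter thus fixed the separation of these genes. Erlin1 had 1.52 (limma adjusted p = 0.101), Hnf4a, a transcription factor that drives Apob and Mttp, 2.02 (adjusted p = 0.123), and Foxo1, which activates Mttp when insulin is low, 0.93 (adjusted p = 0.172). Nr1h4, the bile acid receptor, had -1.19 (adjusted p = 0.178), with no HuR library above Input, and 3.48% of all tested genes had all HuR libraries below IgG. The 14 other apolipoproteins had a median of 1.12, with 6 that did not overlap, against the same 31.3%. Apof had 2.51 (adjusted p = 0.0888), Apoc2, the activator of lipoprotein lipase, 2.16 (adjusted p = 0.0990), Saa4 2.21 (adjusted p = 0.112) and Apoc3, which slows triglyceride clearance, 2.01 (adjusted p = 0.180).

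Markers of other liver cells had lower medians or few tested members. The medians were 0.65 over 8 Kupffer cell markers, 0.10 over 6 sinusoidal endothelial markers, 0.79 over 5 stellate cell markers and 0.27 over 5 blood markers, against 1.29 over 12 hepatocyte markers. The 2 tested cholangiocyte markers had a median of 1.77, and the 1 tested enterocyte marker, Anpep, had 0.77. The part of these cell types in the results was not tested. In RNA from whole liver, a difference in the number of cells of a type and in their RNA content cannot be told apart.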

How the data were processed

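RIP-seq libraries of mouse liver (3 HuR, 3 IgG) and a pooled Input mean were analysed. Per the submitters' processing notes, Bowtie2 and featureCounts were used on mm10, with no version stated in those notes. The authors' RPKM per exon had lost the decimal mark in numbers of 1 or more. They were restored from their digits and the authors' log2 folds of RPKM + 1 over Input + 1, and all 138826 distinct lines matched in 6 of 6 folds. The deposited p-value and q-value were only quoted. Reads over several lines had been split equally, so overlapping lines were summed into merged exons and genes; 91.0% to 92.6% of merged exons were whole reads within 0.05. No count model was used.

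The HuR and IgG libraries were set against each other with limma 3.58.1 (R 4.3.3, trend and robust) on log2(RPKM + 0.5), after a filter of 0.5 RPKM in at least 3 libraries, two-sided, Benjamini-Hochberg adjusted. Tested on simulated data of 200 changed genes, at a dispersion of 0.5 (4852 genes) it recovered 7.69% of those changed by 2 on the log2 scale and 32.1% of those changed by 3, with 11.4% of calls false. At 0.1 (5162 genes) it recovered 89.7% and 97.6%, with 7.47% false. The simulated libraries had equal depth and no shift of the median gene, unlike the data, and the dispersions were set and not estimated. Recovery is over the changed genes that passed the filter, 78 of each size at 0.5, and 87 and 85 at 0.1. Single values had an exact permutation test, and those of read shares were not among the planned tests. Pseudocounts, filters, scalings, moderation, a replicate block and left-out libraries were tried as alternatives. The labels give 1 liver per pull-down but not how livers relate across libraries, so p-values measure the spread between these libraries, which may be technical. Exons were to be fitted at distinct coordinates; merged exons replaced them because reads were split. Of 33732 gene names, 32909 matched GENCODE M21. Members, lists and tests were chosen with earlier results of these data known. Named were the members, up to 4 genes per list by smallest p, the 4 genes nearest in pattern (no Gm or Rik names), and first, last, longest, highest and lowest exons; exons 3 to 5, 8, 9, 11, 23, 27, 28 and the gene Anpep were named after their values were seen. Exon and sequence positions are from the table and GENCODE M21. Other tools were scipy 1.17.1, pandas 2.3.3, matplotlib 3.10.9 and numpy 2.4.6 under Python 3.11.15.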

Additional observations from a re-analysis of the deposited data

How the results depend on the processing

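Over 19 alternatives the log2 fold change of Apob stayed above 0, from 0.29 (TMM scaling) to 2.53 (HuR 3 and IgG 1 both left out), and that of Mttp over 20 from 0.07 (gene value without the last exon) to 2.47. Each passed in 1 of them, without IgG 1; leaving out single libraries gave 1.59 to 2.44 for Apob and 1.61 to 2.35 for Mttp. Mttp exon 19 ranged from 1.88 to 3.91, Apob exon 26 from 1.30 to 3.30 and Apob exon 29 from 1.16 to 2.89, with 0 exons called under any of 18 alternatives. Mttp over the exons of transcript Mttp-201, added after seeing the data, gave 1.98 (limma adjusted p = 0.113). The 44 genes called moved to 0 with the replicate block, numbered as labelled or as in the fold columns, to 4 at a pseudocount of 1, 0 with no filter, 166 with a filter at 1 RPKM, 19 with libraries centred, 392 under TMM, 9 under quantile normalization, 5 with no trend, 0 without the pair HuR 3 and IgG 1, 736 with protein-coding genes only, 9 without last exons, and 0 to 741 leaving out single libraries (20, 103 and 87 without HuR 1, 2 and 3, and 741, 0 and 76 without IgG 1, 2 and 3). The 196 genes called for the last exon moved to 1 at a pseudocount of 0.1, 0 with no filter, 359 with a filter at 1 RPKM, 110 with no trend, 0 without the pair HuR 3 and IgG 1, and 0 to 489 leaving out single libraries (489 without HuR 2, 0 without any other). The Mttp against Apob difference turned to -0.22 at a pseudocount of 1 and to -0.17 and -0.09 without HuR 2 and without IgG 1, in a range of -0.17 to 0.15 leaving out single libraries (exact permutation p of 0.3 or more). Tm6sf2, below the filter, has no value under the filters, scalings, block or moderation tried. Its untested difference was -0.51, and -0.85 to 0.06 leaving out single libraries (0.06 without IgG 1). The replicate block left Apob at 1.87 (adjusted p = 0.136) and Mttp at 1.87 (adjusted p = 0.107); same-numbered HuR and IgG libraries had correlations of deviations of 0.14, 0.12 and 0.09, so the numbers were not taken to pair them, though each library correlated best with its own number, a hint from the data and not the design. The cause of these moves was not tested. Input depth is unknown.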
